A study of Chlamydomonas reinhardtii with 12 samples.

Results

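In Chlamydomonas reinhardtii cultures moved from light and air into sealed dark bottles, 238 of 17301 gene models kept close to their light-oxic level for 0.5 h and were higher at 6 h in each of 4 strains. They made up 1.66% of the 14306 models that averaged at least 1 RPKM (reads scaled to model length and to library depth), which are the models analysed here. A model belonged to these late-rising models when, on the scale of log2(RPKM + 1), its mean change over the strains lay between -0.5 and 0.5 at 0.5 h. Its change at 6 h had to be above 0 in each strain, with a mean over the strains of at least 1. The members were thus chosen by these measured changes at 0.5 h and 6 h, so the changes given here describe them and carry no test. 4 models that the choice of members leaves out by name are not among them.

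The study compared 4 strains at 3 stages, with 1 sample for each strain and stage. The strains were the mutant crr1, the mutant carrying the form crr1dCys, the mutant rescued with the full-length gene (crr1:CRR1) and the wild type CC-124. The 3 strains other than CC-124 all carry the crr1 mutation, and the labels give neither a promoter nor a clone number for the 2 rescue constructs. The stages were a light-grown culture under air (light oxic, 0 h) and dark anoxic incubation in closed bottles for 0.5 h or 6 h. Light and oxygen were withdrawn together, so their contributions cannot be told apart. The labels do not say that repeat columns came from separate cultures, so a sample counts once. For comparisons of stages the strains stand in for replicates. Those p-values weigh the mean change between stages against how far that change varies between strains. For strain levels the 3 stages stand in for replicates of a strain. Those p-values weigh a strain difference against how far it varies between stages, not between separate cultures of a strain. For differences in response, a strain fitted alone is taken to vary like the others.

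Chlamydomonas is a unicellular green alga that uses photosynthesis and respiration in light and air. Without oxygen it turns to fermentation and can release hydrogen through hydrogenases that oxygen inactivates. CRR1 is a transcription factor of the plant SBP family. It was first described as the regulator of the response to copper deficiency, and part of the transcriptional response to low oxygen also depends on it. The form crr1dCys lacks a cysteine-rich region of the protein. The sources used here attach no gene names to the models, so the members are given by identifier and no function is assigned to them.

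The 20 columns of the deposited table held 12000600 to 18894000 reads, as recovered from the steps of the values. 8 samples had 2 columns, named by series (TS1, TS2 or TS4), and these were averaged. In 7 of the 8 pairs, the columns correlated across the tested models at 0.981 or more. The pair of crr1:CRR1 at 6 h correlated at 0.839, and its TS4 column took no part in choosing the members and is described separately at the end. The CC-124 samples occur in TS2 alone, so its values share 1 series. CC-124 therefore differs from the other strains in strain, series and number of columns, and these cannot be told apart. The series were uneven elsewhere too. crr1:CRR1 occurs in TS1 and TS4 alone, so it shares no series with CC-124. Its 6 h level from TS1 is set against light averaged over TS1 and TS4. For crr1, 0.5 h has TS1 alone, against light averaged over TS1 and TS2. In a bulk culture, a change in the share of cells that hold a transcript and a change in its amount per cell cannot be told apart either.

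The late-rising models were mostly of low abundance before the rise. Their median level, averaged over the strains, was 4.07 RPKM in light, 4.36 RPKM after 0.5 h and 12.5 RPKM after 6 h. Over all tested models these medians were 6.55, 6.54 and 6.50 RPKM. The median ratio of 6 h to light-oxic RPKM was 3.04 for the members. Their median read number per column was 131 in light, 153 at 0.5 h and 424 at 6 h, so most changes rested on more than a few reads. 32 members (13.4%) had a light-oxic mean under 1 RPKM, against 3.02% of the tested models. No member was listed at 0 in every light-oxic column, against 0.035% of tested models. The median model length was 2370 bases for members and 2292 bases for all tested models.

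At 6 h the median response, the difference in log2(RPKM + 1) from light oxic, was 1.21 in crr1, 1.06 in crr1dCys, 1.48 in crr1:CRR1 and 1.40 in CC-124. Over all tested models, the same medians were -0.01, -0.14, -0.08 and 0.03. The mean response over strains had a median of 1.27 among members, with quartiles of 1.10 and 1.54 and a highest value of 3.35. At 0.5 h the member medians were 0.11 in crr1, 0.22 in crr1dCys, 0.15 in crr1:CRR1 and 0.08 in CC-124. In limma with Benjamini-Hochberg adjustment over the 14306 models, all 238 members had an adjusted p below 0.05 and a log2 difference of at least 1 at 6 h against light, as 5.07% of the tested models did in that direction and 7.13% in the other. No member passed at 0.5 h against light, though 61 had an unadjusted p below 0.05 as 52.4% of tested models did. In that comparison 3.43% of tested models passed upward and 4.96% downward. At 6 h against 0.5 h, 160 members passed upward and none downward, beside backgrounds of 3.51% and 4.79%. The rule fixes these 3 counts in whole or in large part, the first 2 comparisons share their light-oxic samples, and nothing is read from the counts.

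**Figure D1:**
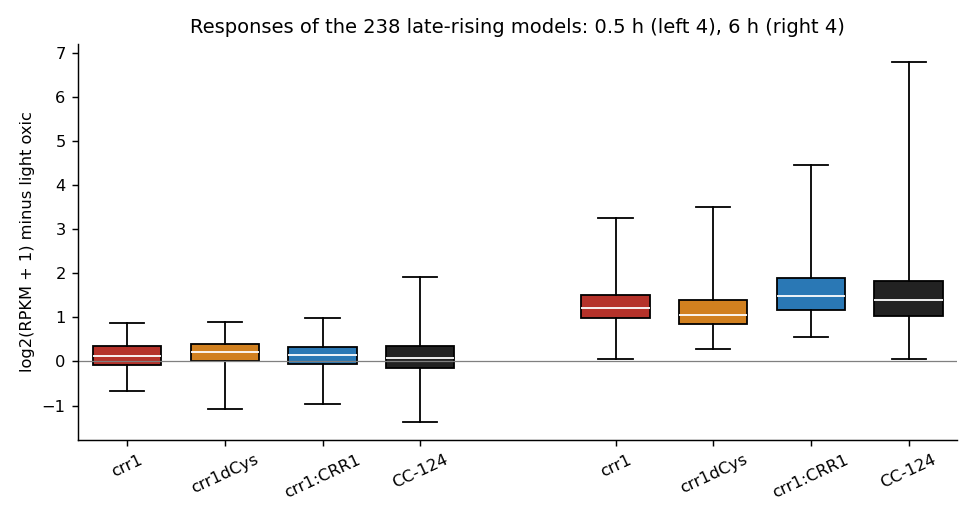
Responses of the 238 late-rising models in each strain, as log2(RPKM + 1) minus light oxic, at 0.5 h (left 4 boxes) and 6 h (right 4 boxes). Boxes span the quartiles, the white line is the median and the whiskers reach the lowest and highest member. At 0.5 h the medians lie between 0.08 and 0.22, and at 6 h between 1.06 and 1.48.

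The rule limits the mean at 0.5 h but not the single strains. 123 members (51.7%) stayed within 0.5 log2 units of light oxic at 0.5 h in all 4 strains, as did 38.2% of all tested models. Outside that range, 33 members were up and 9 down in crr1, 30 up and 6 down in crr1dCys, 13 up and 5 down in crr1:CRR1, and 35 up and 22 down in CC-124. The widest early changes were both in CC-124. In crr1, Cre13.g594550.t1.2 had 3.08, 1.66 and 4.62 RPKM in light, at 0.5 h and at 6 h. In CC-124 it had 1.17, 7.22 and 11.2 RPKM, so the larger step there was the early one. These CC-124 values rested on only 3, 22 and 33 reads. Cre06.g277960.t1.1 had 4.57, 6.12 and 11.5 RPKM at these stages in crr1, and 4.36, 1.08 and 5.81 RPKM in CC-124, where it was lowest at 0.5 h. Its CC-124 values rested on 17, 5 and 26 reads. These 2 models were singled out after their values were seen. 231 members (97.1%) were higher at 6 h than at 0.5 h in all 4 strains, against 23.2% of tested models. 75 members (31.5%) had a response of at least 1 in every strain, against 1.87% of tested models.

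Members close to the thresholds differed little from models just outside them. The lowest mean 6 h responses among members were 1.0025 (Cre10.g444250.t1.2), 1.0026 (Cre12.g510403.t1.1) and 1.0037 (Cre09.g397050.t1.2). The nearest models below the limit had 0.9997 (Cre09.g403350.t1.2), 0.9978 (Cre06.g267000.t1.1) and 0.9977 (Cre03.g209200.t1.2). At the upper early limit, Cre01.g037300.t1.1, Cre12.g548800.t1.2 and Cre02.g104300.t1.2 were members at 0.4991, 0.4971 and 0.4971. Cre06.g289050.t1.2, Cre15.g634351.t1.1 and Cre17.g720850.t1.1 fell outside at 0.5012, 0.5014 and 0.5015. This was the crowded edge, since 438 models met every other condition but had risen by more than 0.5 at 0.5 h. At the lower early limit 15 models fell outside. The nearest members were Cre06.g282700.t1.1 at -0.4938, Cre03.g148750.t1.1 at -0.4612 and Cre02.g130500.t1.1 at -0.4570, and the nearest models outside were Cre06.g271850.t1.1 at -0.5401, Cre02.g075050.t1.1 at -0.5930 and Cre17.g721400.t1.2 at -0.6117. By the response of the lowest strain, Cre09.g395750.t1.2, Cre19.g753350.t1.2 and Cre09.g404250.t1.2 were just inside at 0.0506, 0.0630 and 0.0996. Cre01.g039450.t1.2, Cre02.g085500.t1.2 and Cre02.g093200.t1.2 were outside with 0.0000, a strain without any change. By mean abundance, Cre03.g170250.t1.2, Cre13.g575450.t1.2 and Cre05.g231400.t1.1 were just inside at 1.0746, 1.0919 and 1.0953 RPKM. Cre17.g721350.t1.1, Cre02.g095700.t1.1 and Cre12.g488200.t1.2 were outside at 0.9942, 0.8861 and 0.8126 RPKM.

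Among the 20 members with the largest mean response, several rose steeply in every strain. Cre02.g130500.t1.1 had 1.58 to 4.82 RPKM in light and 0.436 to 3.31 RPKM at 0.5 h over the 4 strains. At 6 h it had 39.0 RPKM in crr1, 34.3 RPKM in crr1dCys, 49.2 RPKM in crr1:CRR1 and 21.4 RPKM in CC-124. By column means it was lower at 0.5 h than in light in all 4 strains and higher than both at 6 h. In crr1 the single 0.5 h column had 3.31 RPKM, between the 5.14 and 2.20 RPKM of the light columns. The mean response of this model was 3.18, with an SD over strains of 0.51 (n = 4). Cre01.g064850.t1.2 had 0.918 to 2.64 RPKM in light and 0.286 to 2.89 RPKM at 0.5 h. Its 6 h levels were 21.3 RPKM in crr1, 17.5 RPKM in crr1dCys, 27.2 RPKM in crr1:CRR1 and 10.9 RPKM in CC-124. Its mean response was 2.90 with an SD of 0.41, and the stages of light and 6 h did not overlap. Cre02.g083750.t1.2 had 0.408 to 0.884 RPKM in light and less than that at 0.5 h in each strain, 0.188 to 0.337 RPKM. It then had 8.13 RPKM in crr1, 4.58 RPKM in crr1dCys, 14.2 RPKM in crr1:CRR1 and 11.1 RPKM in CC-124 at 6 h. Like Cre02.g130500.t1.1, this model was lowest at 0.5 h in every strain by column means. In crr1dCys, however, its TS1 columns fell from 0.404 to 0.177 RPKM while its TS2 columns rose from 0.413 to 0.497 RPKM. The SD of its response was 0.50, and the SDs of all 3 models were above the median of 0.391 over the members.

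Cre04.g213400.t1.1 had few or no reads before 6 h in the crr1-derived strains. In crr1, crr1dCys and crr1:CRR1 it had between 0 and 0.0411 RPKM in light and at 0.5 h, which was at most 2 reads in any column. At 6 h these strains had 5.73, 5.85 and 6.25 RPKM, the last from TS1. In the TS4 column of crr1:CRR1 it had 0.263 RPKM, from 9 reads. In CC-124 it had 0.875 RPKM in light, 0.284 at 0.5 h and 42.8 RPKM at 6 h, the last from 1460 reads. It was thus the strain with transcript already in light that reached the highest level.

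Cre07.g335200.t1.1 was the most abundant of the 20. In light, at 0.5 h and at 6 h it had 310, 387 and 1039 RPKM in crr1, and 249.6, 283 and 823 RPKM in crr1dCys. In crr1:CRR1 it had 195, 224 and 951 RPKM, and in CC-124 48.3, 52.4 and 435 RPKM. Its level was lowest in CC-124 at each stage, yet its response was largest there, at 3.14 against 1.71 to 2.28 in the other strains. Cre07.g328000.t1.1 also reached high levels. After 6 h it had 69.3 RPKM in crr1, 127 RPKM in crr1dCys, 142 RPKM in crr1:CRR1 and 197 RPKM in CC-124, against 18.5 to 34.1 RPKM in light and 19.0 to 38.5 RPKM at 0.5 h.

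The most abundant members of all lay outside these 20 and were singled out after their values were seen. Cre13.g577100.t1.1 averaged 2149 ± 368 RPKM in light, 2489 ± 817 at 0.5 h and 6249.7 ± 2864 RPKM at 6 h (SD, n = 4 strains). Cre10.g418450.t1.1 averaged 1002 ± 262, 1331 ± 293 and 2967 ± 987 RPKM at the same stages. The late rise was therefore not limited to scarce transcripts, although the median member was scarce.

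The member that rose most evenly, singled out after its values were seen, was among the smaller changes. Cre16.g665750.t1.1 had responses between 1.02 and 1.06 in all 4 strains, with levels of 5.005 RPKM in crr1, 5.403 RPKM in crr1dCys, 5.201 RPKM in crr1:CRR1 and 3.55 RPKM in CC-124 at 6 h, against 1.93, 2.11, 2.00 and 1.25 RPKM in light. The SD of its response over strains was 0.0197, the lowest among the members. The median of this SD was 0.391 for members and 0.245 for all tested models. At 0.5 h the medians of the SD were 0.207 and 0.210.

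**Figure D2:**
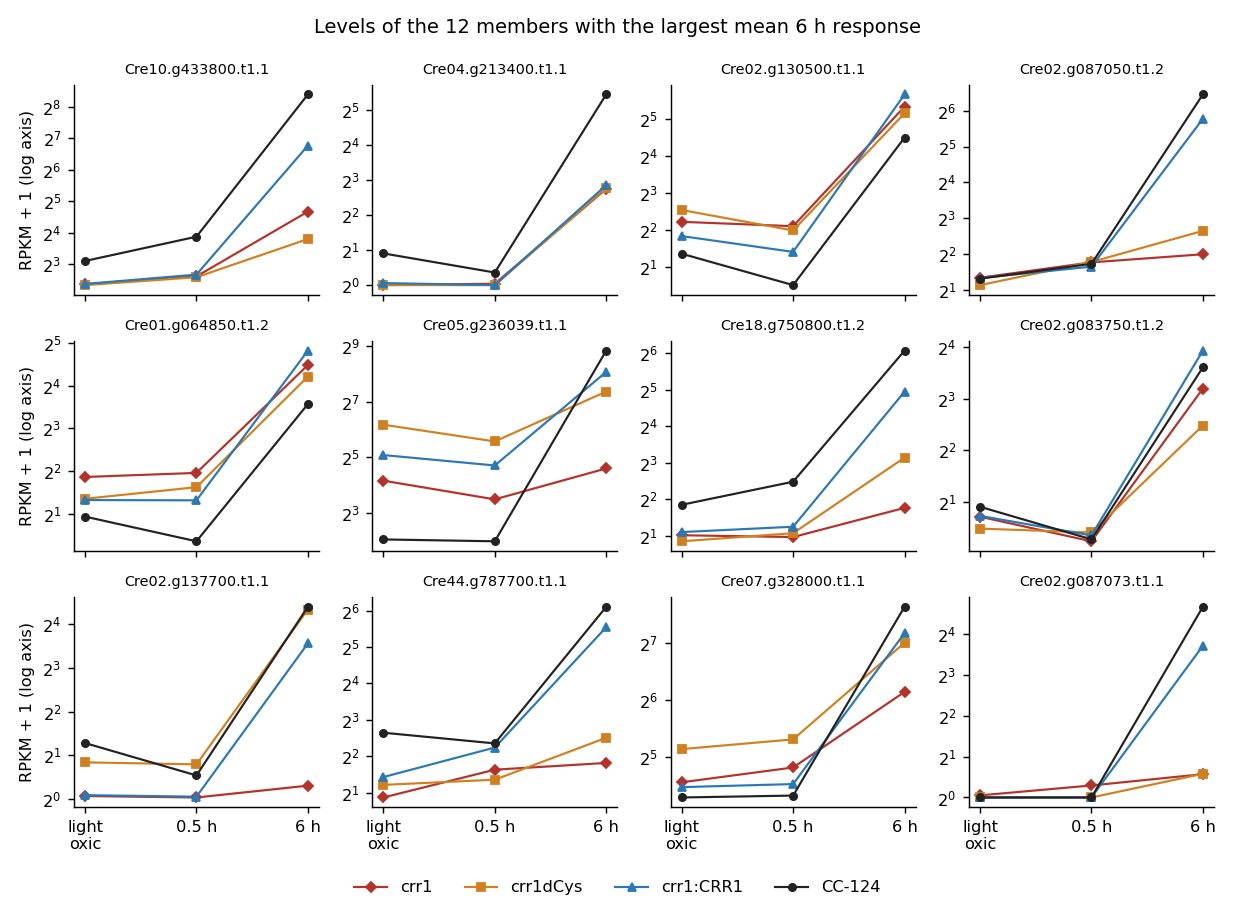
Levels of the 12 members with the largest mean 6 h response, as RPKM + 1 on a log axis, in light, at 0.5 h and at 6 h, with 1 line per strain and 1 point per sample. Some panels rise steeply in all strains, such as Cre02.g130500.t1.1, and others rise far more in crr1:CRR1 and CC-124 than in crr1 and crr1dCys, such as Cre02.g087050.t1.2.

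In a group of late-rising models the response was far smaller in both strains without full-length CRR1, when TS1 stood for crr1:CRR1 at 6 h. In 12 members (5.04%) the 6 h responses of both strains with full-length CRR1 were at least 1 log2 unit above those of both crr1 and crr1dCys, as in 62 (0.433%) of the tested models. The opposite was seen for 1 member, Cre27.g775200.t1.1, and for 0.161% of tested models. Members were chosen for a rise, which makes large differences in response more likely among them, so these shares are not read against each other. Membership in the 12 was set by size with no test, and those outside the 20 with the largest response were singled out after their values were seen.

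Cre02.g087050.t1.2 had similar levels in the strains until 0.5 h, and they parted at 6 h. It had 1.18 to 1.51 RPKM in light and 2.12 to 2.41 RPKM at 0.5 h in every strain. At 6 h it had 2.96 RPKM in crr1 and 5.24 RPKM in crr1dCys, against 53.8 RPKM in crr1:CRR1 and 86.9 RPKM in CC-124. The strains were within the same range until 0.5 h, and the groups did not overlap at 6 h. Its response was lower in crr1 than in the full-length strains by a log2 difference of -4.16 (SE 0.38, adjusted p = 0.0759) and lower in crr1dCys by -3.28 (SE 0.38, adjusted p = 0.273), in limma. Cre10.g433800.t1.1 had the largest mean response of all members. It had 24.4 RPKM in crr1 and 12.9 RPKM in crr1dCys at 6 h, against 107 RPKM in crr1:CRR1 and 333 RPKM in CC-124. In light it had 4.04 to 7.57 RPKM and at 0.5 h 4.996 to 13.6 RPKM, with CC-124 the highest at both. The response was positive in all strains, and that of crr1dCys was the smallest at 1.42.

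Cre05.g236039.t1.1 differed between strains at every stage. In light, at 0.5 h and at 6 h it had 16.9, 10.2 and 23.3 RPKM in crr1, and 71.3, 46.6 and 164 RPKM in crr1dCys. In crr1:CRR1 it had 32.9, 25.2 and 269 RPKM, and in CC-124 3.14, 2.95 and 457 RPKM. CC-124 had the lowest level until 0.5 h and the highest at 6 h. The order of the other strains at 6 h did not follow their light-oxic order.

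Other members of the group were scarce in light. Cre02.g087073.t1.1 was listed at 0 in light and at 0.5 h in crr1dCys, crr1:CRR1 and CC-124. At 6 h it had 0.486 RPKM in crr1 and 0.495 RPKM in crr1dCys, against 12.2 RPKM in crr1:CRR1 and 24.6 RPKM in CC-124. The crr1 and crr1dCys values rested on 1 to 9 reads per column, against 148 and 318 reads in the full-length strains. Cre18.g750700.t1.1 had at most 0.317 RPKM in light. It had 0.158 RPKM in crr1 and 0.276 RPKM in crr1dCys at 6 h, against 5.89 RPKM in crr1:CRR1 and 15.2 RPKM in CC-124. These 6 h values rested on 0 and 1 reads in the 2 columns of crr1, 2 and 0 reads in those of crr1dCys, 20 reads in crr1:CRR1 and 55 reads in CC-124. The TS4 column of crr1:CRR1, left out here, had 0 reads, so the rise in crr1:CRR1 was seen in 1 of its 2 columns.

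Cre18.g750800.t1.2 and Cre44.g787700.t1.1 were more abundant. Cre18.g750800.t1.2 had 2.40 RPKM in crr1 and 7.82 RPKM in crr1dCys at 6 h, against 29.8 RPKM in crr1:CRR1 and 66.1 RPKM in CC-124, and 0.805 to 2.61 RPKM in light. Here crr1dCys lay between crr1 and the full-length strains. Cre44.g787700.t1.1 had 2.51 RPKM in crr1 and 4.68 RPKM in crr1dCys at 6 h, against 45.6 RPKM in crr1:CRR1 and 67.8 RPKM in CC-124. In light it had 0.821 to 5.25 RPKM.

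The other members of the 12 were Cre10.g444200.t1.2, Cre13.g575450.t1.2, Cre19.g753350.t1.2, Cre03.g155000.t1.1 and Cre10.g444250.t1.2. Their 6 h responses ran from 0.06 to 0.57 in crr1 and from 0.38 to 0.85 in crr1dCys, against 1.47 to 2.39 in crr1:CRR1 and 1.93 to 2.87 in CC-124. Cre27.g775200.t1.1 went the other way. It had 8.56 RPKM in crr1 and 17.6 RPKM in crr1dCys at 6 h, against 5.14 RPKM in crr1:CRR1 and 1.26 RPKM in CC-124. In light it had 1.04 and 2.96 RPKM in crr1 and crr1dCys, and 3.43 and 0.199 RPKM in crr1:CRR1 and CC-124.

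**Figure D3:**
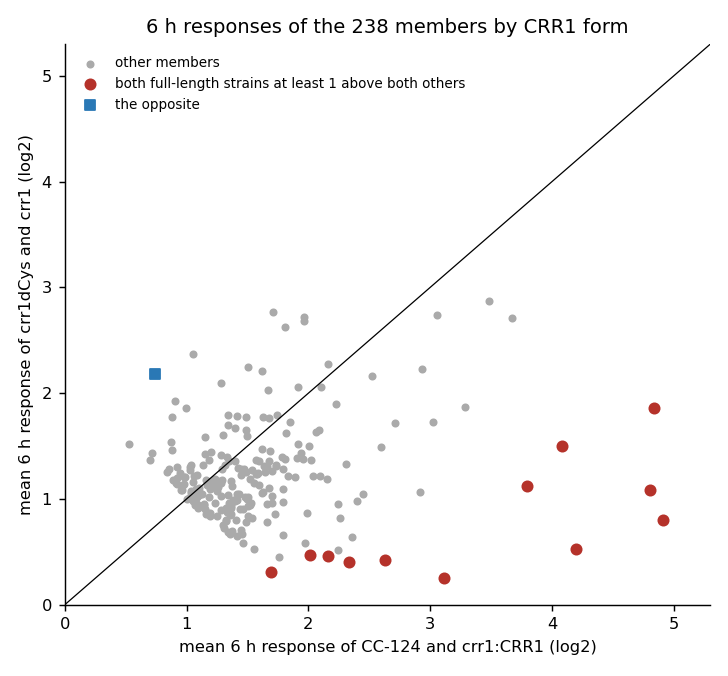
Mean 6 h response (log2) of the 2 strains without full-length CRR1 (crr1dCys and crr1, vertical axis) against that of the 2 strains with it (CC-124 and crr1:CRR1, horizontal axis), 1 point per member. Red points are the 12 members at least 1 log2 unit higher in both full-length strains than in both others, the blue square is the 1 member with the opposite pattern, and the line marks equal responses.

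In the test of the response itself, no member passed in crr1 or in crr1dCys against the full-length pair. With 2 residual degrees of freedom, the limma fit takes a single strain to be as variable as the pair. Among all tested models, 0% passed upward and 0.014% downward for crr1, and 0% passed in either direction for crr1dCys. At an unadjusted p below 0.05, 32 members differed in crr1, 26 of them with a lower response, beside 2.54% of the tested models, where 168 of 363 were lower. For crr1dCys it was 48 members, 43 of them lower, beside 5.96%, where 458 of 852 were lower. The median difference from the full-length pair was -0.21 in crr1 and -0.37 in crr1dCys for members, against -0.00 and -0.11 for all tested models. Members were chosen by these same 6 h responses, and the required mean rise can be reached through large responses in the full-length strains. Their counts, directions and medians are therefore not independent of the choice. The member values are not read against those of all tested models. The smallest adjusted p of a member was 0.0759 for crr1 and 0.273 for crr1dCys, both in Cre02.g087050.t1.2. A p above the threshold does not show equal responses. These values rest on the TS1 column of crr1:CRR1 at 6 h.

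A few members hardly changed in crr1 alone when TS1 stood for crr1:CRR1 at 6 h. Cre02.g137700.t1.1 had 0.238 RPKM in crr1 at 6 h, which is 9 and 5 reads in its 2 columns. In crr1dCys it had 19.1 RPKM, in crr1:CRR1 10.8 RPKM and in CC-124 20.02 RPKM. The response was 0.23 in crr1 and 3.11 to 3.50 in the other strains. In the TS4 column of crr1:CRR1 it had 0.415 RPKM from 15 reads, a response of 0.41. The limma difference of crr1 from the full-length pair was -3.05 (SE 0.36, adjusted p = 0.153), and that of crr1dCys was 0.21 (SE 0.36, adjusted p = 0.936). Cre13.g570600.t1.1 also changed least in crr1. It had 4.06 RPKM in crr1, 32.6 RPKM in crr1dCys, 48.0 RPKM in crr1:CRR1 and 58.8 RPKM in CC-124 at 6 h, with responses of 0.22, 1.69, 2.26 and 2.22. Its TS4 column had 13.3 RPKM, a response of 0.48. With Cre18.g750800.t1.2 they were the 3 members in which crr1 lay at least 1 log2 unit below every other strain, as in 0.182% of tested models. Cre18.g750800.t1.2 had 0.585 RPKM in TS4 against 29.8 RPKM in TS1, and with TS4 in place of TS1 0 of the 3 met this size. In the opposite direction, crr1 stood above every other strain in 1 member, Cre10.g421150.t1.2, beside 0.0489% of tested models, and in 0 members with TS4 in place. crr1dCys stood above in Cre02.g076663.t1.1 alone, beside 0.126%. crr1:CRR1 stood above in Cre03.g149050.t1.2, Cre13.g564450.t1.2 and Cre03.g201417.t1.1, beside 0.175%. These 3 had 1.44, 2.98 and 0.348 RPKM in TS4, against 12.9, 19.95 and 13.3 RPKM in TS1, and 0 of the 3 met the size with TS4 in place. They and Cre02.g076663.t1.1 were singled out after their values were seen.

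CC-124 stood apart from the 3 crr1-derived strains by size in some members. Its response was at least 1 log2 unit above every other strain in 12 members and below in 7, beside 1.31% and 1.42% of tested models. With TS4 in place of TS1 for crr1:CRR1 at 6 h, 11 of the 12 and 3 of the 7 met this size. In limma, the response of CC-124 minus the mean of the other 3 strains passed the threshold in 11 members with a larger response in CC-124 and in 6 with a smaller one, beside 1.01% and 1.09% of tested models. At an unadjusted p below 0.05, 76 members differed, beside 19.9% of tested models. This fit had 4 residual degrees of freedom. With the TS4 column of crr1:CRR1 included at 6 h, the adjusted counts were 9 and 0. The counts rest on the other strains: without crr1 they were 0 and 0, without crr1dCys 3 and 4, and without crr1:CRR1 32 and 8. These differences are not independent of the choice of members. In 6 of the 11 the mean response of the other 3 strains was under 1, so they reached the required mean of 1 through CC-124, while the rise needed in every strain limits how far CC-124 can fall below. The p-values are those of each model in the fit over all 14306 models, and nothing is read from how many members passed.

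Cre03.g169550.t1.2 had the lowest adjusted p and was 1 of those 6. Its responses were 0.31 to 0.75 in the crr1-derived strains, with TS1 for crr1:CRR1 at 6 h. It had 16.5 RPKM in crr1, 12.5 in crr1dCys and 18.6 in crr1:CRR1 at 6 h, and 236 RPKM in CC-124. In light it had 11.2, 9.84, 10.7 and 14.8 RPKM in the same order. At 6 h CC-124 lay far above the others, with a response difference of 3.38 for CC-124 minus the others (SE 0.29, adjusted p = 0.00148, limma). Cre05.g236039.t1.1 had the largest difference, 5.25 (SE 0.81, adjusted p = 0.0192, limma). Cre16.g663750.t1.2 had 0.318 RPKM in crr1, 1.68 in crr1dCys and 1.96 in crr1:CRR1 at 6 h, and 34.4 RPKM in CC-124. In light it had 0.091 to 0.333 RPKM in the crr1-derived strains and 2.15 RPKM in CC-124. The difference in response was 2.66 (SE 0.38, adjusted p = 0.0139, limma), on top of a higher start in CC-124.

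With TS1 for crr1:CRR1 at 6 h, Cre13.g590500.t1.1 differed more in where it started than in where it ended. In light it had 913 RPKM in crr1, 864 in crr1dCys and 508 in crr1:CRR1, and 185 RPKM in CC-124. After 6 h it had 1748, 2007 and 2154 RPKM in the crr1-derived strains and 2502 RPKM in CC-124. In TS4, crr1:CRR1 had 256 RPKM at 6 h, below its light-oxic level. The response difference was 2.34 (SE 0.42, adjusted p = 0.0292, limma). Cre03.g154050.t1.1 had 1.37, 1.62 and 0.606 RPKM in crr1, crr1dCys and crr1:CRR1 at 6 h, and 16.0 RPKM in CC-124, with a difference of 2.40 (SE 0.28, adjusted p = 0.00671, limma). In TS4, crr1:CRR1 had 1.93 RPKM of this model.

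In the members with a smaller response in CC-124, the light-oxic level of CC-124 was often far from that of the other strains. Cre02.g102050.t1.2 had 6.38 RPKM in crr1, 4.14 in crr1dCys and 7.002 in crr1:CRR1 in light, and 491 RPKM in CC-124. At 6 h it had 68.9, 24.5 and 57.8 RPKM in the crr1-derived strains and 718 RPKM in CC-124. The transcript was thus already abundant in CC-124 in light, and the response difference was -2.26 (SE 0.34, adjusted p = 0.0187, limma). Cre14.g616650.t1.1 likewise had 4.63 to 7.24 RPKM in light in the crr1-derived strains and 111 RPKM in CC-124. After 6 h it had 24.7 to 38.3 RPKM in the crr1-derived strains and 154 RPKM in CC-124. Cre02.g089500.t1.1 was the reverse case. It had 35.5 to 50.7 RPKM in light and 126 to 191 RPKM at 6 h in the crr1-derived strains, and 1.36 and 1.78 RPKM in CC-124. Its small response in CC-124 therefore came at a level under 2 RPKM throughout. For crr1:CRR1 at 6 h, the levels given are those of TS1. In TS4, Cre02.g102050.t1.2 had 2.96, Cre14.g616650.t1.1 17.7 and Cre02.g089500.t1.1 2.76 RPKM, against 57.8, 24.7 and 149 RPKM in TS1.

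Cre06.g283900.t1.1 and Cre09.g404250.t1.2 completed the 5 largest differences in this direction. Cre06.g283900.t1.1 had 33.7, 19.0 and 38.9 RPKM in crr1, crr1dCys and crr1:CRR1 at 6 h and 18.5 RPKM in CC-124. Its light-oxic levels were 2.74, 3.11 and 3.52 RPKM in those strains and 10.3 RPKM in CC-124. Cre09.g404250.t1.2 had 5.22, 2.98 and 4.51 RPKM at 6 h in crr1, crr1dCys and crr1:CRR1 and 1.54 RPKM in CC-124, against 0.255 to 0.741 RPKM in light in the crr1-derived strains and 1.37 RPKM in CC-124. Both began higher in CC-124 than in the other strains. For crr1:CRR1 at 6 h, these levels are again those of TS1. In TS4, Cre06.g283900.t1.1 had 4.51 RPKM, against 38.9 RPKM in TS1 and 3.52 RPKM in light. Cre09.g404250.t1.2 had 36.7 RPKM in TS4, against 4.51 RPKM in TS1.

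**Figure D4:**
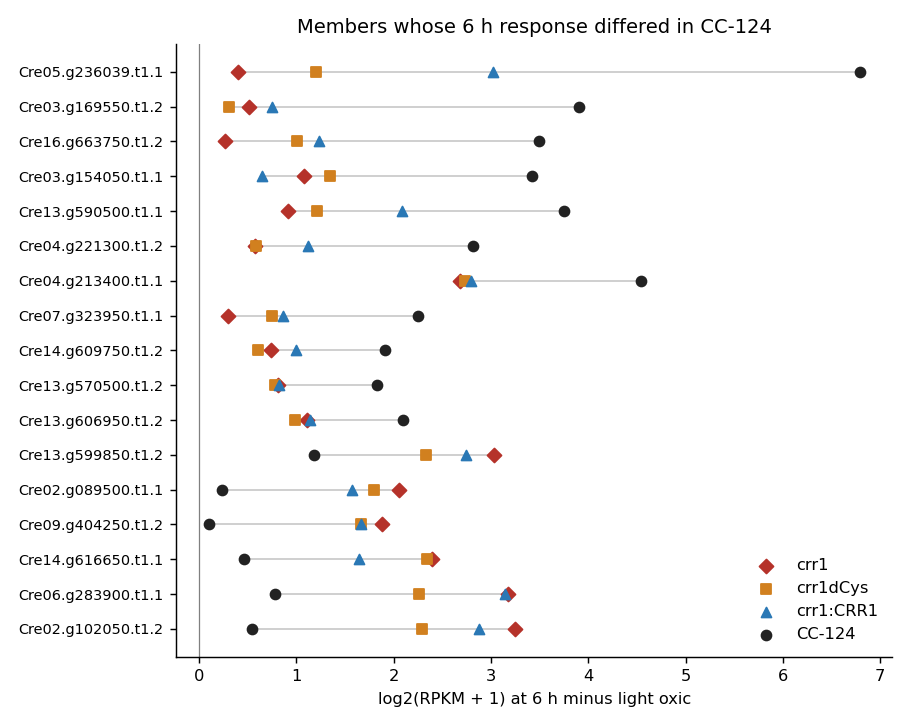
6 h response, as log2(RPKM + 1) at 6 h minus light oxic, of the 17 members whose response in CC-124 differed from the mean of the other strains in limma, with 1 symbol per strain. In the upper 11 members CC-124 (black circles) lies to the right of the 3 crr1-derived strains, and in the lower 6 to their left. For crr1:CRR1 at 6 h, TS1 alone is shown.

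Strain differences in level over all 3 stages were also tested. The choice of members used the level through the required mean of at least 1 RPKM. The level also averages the light, 0.5 h and 6 h values that the rule used. A strain difference in the 6 h response alone therefore shifts it, and these tests are not independent of the choice. CC-124 minus the mean of the other 3 strains passed in 32 members with higher levels in CC-124 and in 21 with lower levels, beside 3.49% and 3.99% of tested models. In 5 of the 32, Cre16.g663750.t1.2 and Cre03.g154050.t1.1 among them, the other 3 strains averaged under 1 RPKM, so they passed that filter through CC-124. The largest differences were those of Cre02.g102050.t1.2 and Cre02.g089500.t1.1, at 5.10 (SE 0.31, adjusted p = 1.14e-06, limma) and -4.74 (SE 0.25, adjusted p = 4.36e-07, limma). Cre10.g421150.t1.2 had 0.163 to 0.416 RPKM in light in the crr1-derived strains and 16.0 RPKM in CC-124. At 6 h it had 9.58, 1.98 and 2.50 RPKM in crr1, crr1dCys and crr1:CRR1 and 35.8 RPKM in CC-124, and the difference in level was 3.50 (SE 0.26). Cre01.g065800.t1.2 had 0.176 to 0.290 RPKM in light in the crr1-derived strains and 14.1 RPKM in CC-124, yet its response was 1.83 to 2.25 in all 4 strains. Its level differed by 3.38 (SE 0.15) although its late response was within that narrow range. Cre14.g616650.t1.1 and Cre10.g432250.t1.2 followed with 3.22 and 3.21. Among members lower in CC-124, Cre03.g205100.t1.1, Cre16.g652200.t1.1, Cre10.g448400.t1.2 and Cre07.g335200.t1.1 differed by -2.03, -2.00, -1.96 and -1.96. Cre03.g205100.t1.1 had 22.6, 20.3 and 23.2 RPKM at 6 h in crr1, crr1dCys and crr1:CRR1 and 3.58 RPKM in CC-124.

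Against the mean of the full-length strains, the level of crr1 was higher in 5 members and lower in 16, beside 1.03% and 0.916% of tested models. For crr1dCys it was higher in 7 and lower in 15, beside 1.47% and 1.34%. These counts changed with the strains that made up the full-length pair. Without CC-124, 1 member was higher and 3 were lower in crr1, and 1 was higher and 0 were lower in crr1dCys. Without crr1:CRR1 the counts were 22 and 40 for crr1, and 20 and 30 for crr1dCys. Every member lower in crr1 or crr1dCys also passed as higher in CC-124 than in the other strains. Every member higher in crr1 or crr1dCys, except Cre02.g081176.t1.1, also passed as lower in CC-124.

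2 members stood out by their level in 1 crr1-derived strain. Cre02.g081176.t1.1 had 15.6, 12.5 and 55.3 RPKM in crr1 in light, at 0.5 h and at 6 h. In crr1dCys it had 3.64, 3.54 and 5.47 RPKM, in crr1:CRR1 3.43, 2.79 and 6.54 RPKM and in CC-124 4.42, 2.92 and 14.8 RPKM. Its level in crr1 was above the other strains at each stage, by 1.97 over the full-length pair (SE 0.23, adjusted p = 0.000604, limma). Cre14.g609488.t1.1 had 29.6, 40.4 and 171 RPKM in crr1dCys at the same stages, against 5.90, 7.48 and 23.4 RPKM in crr1, 5.23, 8.21 and 24.9 RPKM in crr1:CRR1 and 1.71, 2.53 and 20.4 RPKM in CC-124. Its level in crr1dCys exceeded that of the full-length pair by 2.87 (SE 0.18, adjusted p = 1.73e-05, limma). For Cre13.g570600.t1.1 the level in crr1 was lower than in the full-length pair by a log2 difference of -2.16 (SE 0.29, adjusted p = 0.00148, limma), with 3.34 RPKM in light in crr1 against 9.25 RPKM in crr1:CRR1 and 11.8 RPKM in CC-124.

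Some late-rising models lie next to each other. 175 members matched a locus tag of the RefSeq annotation of assembly v5.5, which was used for the order of genes only. Positions directly beside a member were counted for each member, so a gene between members counts more than once. Of 263 such positions with a tested gene, 14 (5.32%) held members, in 7 pairs, beside 1.66% of all tested models. Examples are Cre07.g318800.t1.1 with Cre07.g318850.t1.1, with mean responses of 2.22 and 1.60, and Cre16.g665750.t1.1 with Cre16.g665800.t1.1, with 1.04 and 1.17. The 245 neighbours that were not members had a median mean response of 0.01, and 4.08% of them passed upward at 6 h. The 5.07% of all tested models includes the members, all of which passed, so these shares are not read against each other. By the order of identifiers alone, 36 of 410 tested positions (8.78%), counted in the same way, held members. They formed 18 pairs with 35 members. These pairs include Cre02.g087050.t1.2 with Cre02.g087073.t1.1 and Cre10.g444200.t1.2 with Cre10.g444250.t1.2. Both pairs were among the 12 with larger responses in both full-length strains when TS1 stood for crr1:CRR1 at 6 h. In TS4 these models had 2.79, 0.308, 0.971 and 0.405 RPKM, against 53.8, 12.2, 6.15 and 3.01 RPKM in TS1. Cre01.g008400.t1.2, Cre01.g008406.t1.1 and Cre01.g008450.t1.1 formed a run of 3. The strand setting and the treatment of shared reads are not given, so neighbours that overlap could share reads. The pairs named here were chosen after their values were seen.

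The second 6 h column of crr1:CRR1, TS4, was not used by the rule. It belongs to the same sample and allows no test. It is set here against the light-oxic level of crr1:CRR1, which the rule did use, so these values are not independent of the choice of members. In it, 177 members (74.4%) were above the light-oxic level of crr1:CRR1, against 52.9% of tested models. 102 members (42.9%) were higher by at least 1 log2 unit, against 13.8%. In the TS1 column, which the rule used, 209 members were higher by at least 1, as were 7.49% of tested models. The median response was 0.77 in TS4 and 1.48 in TS1. Cre02.g130500.t1.1 and Cre07.g335200.t1.1 were high in both columns, with 30.03 and 1345 RPKM in TS4, against 49.2 and 951 RPKM in TS1. Cre13.g570850.t1.1, singled out after its values were seen, had 115 RPKM in TS4, against 2494 RPKM in TS1 and 1008 RPKM in light. 46 members differed by at least 2 log2 units between these columns, against 0 to 2 members in the other 7 pairs.

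Most of the 12 members with larger responses in both full-length strains were not high in TS4. Cre10.g433800.t1.1 had 7.09 RPKM in TS4, against 107 RPKM in TS1. Cre02.g087050.t1.2 had 2.79 RPKM, against 53.8 RPKM in TS1. The light-oxic levels of crr1:CRR1 were 4.17 and 1.497 RPKM. In 10 of the 12 the TS4 response lay between -0.75 and 0.64, and the exceptions were Cre19.g753350.t1.2 and Cre03.g155000.t1.1, with 16.7 and 29.2 RPKM in TS4. With both columns averaged, 5 of the 12 still met the size rule. With TS4 in place of TS1, 4 members met it, 2 of them among the 12. The difference between strains with and without full-length CRR1 in these models therefore rests on CC-124 and on the TS1 column of crr1:CRR1.

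**Figure D5:**
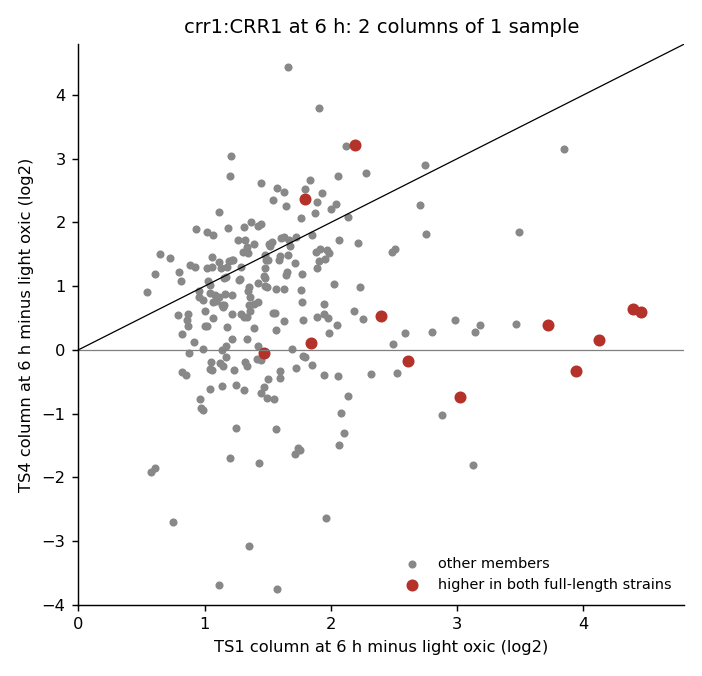
Response at 6 h in the TS4 column of crr1:CRR1 (vertical axis) against that in its TS1 column (horizontal axis), both as log2(RPKM + 1) minus light oxic, 1 point per member. The black line marks equal values, the axes have different scales, and red points are the 12 members with a larger response in both full-length strains. Of the red points, 10 lie between -0.75 and 0.64 on the vertical axis.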

How the data were processed

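RNA was sequenced from 12 samples, 4 strains at 3 stages. The authors deposited 1 table of 17301 gene models in 20 columns. No header names the unit. The values were read as RPKM as deposited, from their steps and from sums that differ between columns. Bowtie is named, per the submitters' processing notes, without a version. For genome build, annotation, counting and strand setting the sources used here give nothing. Column names were matched to strains by abbreviation, those of crr1 and crr1:CRR1 by elimination. Repeat columns were averaged on the scale of log2(RPKM + 1), a pseudocount of 1 that understates changes of low values. For crr1:CRR1 at 6 h, column TS4 was left out unless stated. Levels printed in RPKM are means of the columns used.

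Models that averaged at least 1 RPKM were tested in R 4.3.3 by limma 3.58.1, with trended empirical Bayes variances, and adjusted by Benjamini-Hochberg over 14306 models. A model passed at an adjusted p below 0.05 and a log2 difference of at least 1. Time and level comparisons used strain and stage as terms, with 6 residual degrees of freedom. Differences in response were interactions. The choice of members bears on them, since a mean response of 1 can be reached through 1 strain and a rise was required in every strain. Scripts were tested on simulated data.

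The members and lists were chosen with earlier results of these data known. Named models are the 20 members with the largest mean 6 h response, up to 5 in each direction per strain test, the 3 models on each side of each threshold, the members whose response differed in CC-124, and those said to be singled out. No gene list could be applied, because the RefSeq table used here gives 0 symbols other than locus tags, and CRR1 itself is not analysed here. The reads per column were recovered from the steps, and 99.44% to 99.92% of the depth was found in the models.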

Additional observations from a re-analysis of the deposited data

Results flagged for a closer look

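In 17 members the 6 h response of CC-124 differed from that of the other 3 strains in the test of the difference itself (limma interaction, Benjamini-Hochberg adjusted p below 0.05 and at least 1 log2 unit). All values are the response of CC-124 minus the mean response of crr1, crr1dCys and crr1:CRR1, with TS1 alone for crr1:CRR1 at 6 h. With TS4 included, 9 members passed with a larger and 0 with a smaller response in CC-124. The response was larger in CC-124 for Cre05.g236039.t1.1 (5.25), Cre03.g169550.t1.2 (3.38), Cre16.g663750.t1.2 (2.66), Cre03.g154050.t1.1 (2.40), Cre13.g590500.t1.1 (2.34) and Cre04.g221300.t1.2 (2.06). It was also larger for Cre04.g213400.t1.1 (1.81), Cre07.g323950.t1.1 (1.61), Cre14.g609750.t1.2 (1.13), Cre13.g570500.t1.2 (1.03) and Cre13.g606950.t1.2 (1.02). It was smaller in CC-124 for Cre02.g102050.t1.2 (-2.26), Cre06.g283900.t1.1 (-2.08), Cre14.g616650.t1.1 (-1.66), Cre09.g404250.t1.2 (-1.64), Cre02.g089500.t1.1 (-1.57) and Cre13.g599850.t1.2 (-1.52). In 6 of the 11 the mean response of the other 3 strains was under 1, so they are members through CC-124, and the difference is not independent of their choice. CC-124 has 1 column per stage, all of series TS2, so strain and series cannot be told apart, and the 17 calls are 0 when crr1 is left out.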

How the results depend on the processing

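The time comparisons had strain as the block, which pairs the stages of a strain. With no replicate block, 623 models passed upward and 964 downward at 6 h against light, and 428 upward and 623 downward at 6 h against 0.5 h. No mean response of a named member changed sign under the settings tried, but the balance of higher to lower calls turned for the response of CC-124 and for the level of crr1dCys, as given here. Of 213 values of the main counts under all settings, 159 stayed within 1.5 times the value reported, and of 523 values of 38 named members, 494 moved by less than the spread over strains. The number of members, 238, was 108 with a pseudocount of 5 and 139 with a mean of at least 5 RPKM. With a pseudocount of 0.1 it was 321, of which 181 were among the 238. With a pseudocount of 5, 319 models passed upward and 518 downward at 6 h against light, and 197 upward and 325 downward at 6 h against 0.5 h. With a pseudocount of 0.1, 775 passed upward at 6 h against 0.5 h.

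Counts of members are given higher first, then lower. For levels of CC-124, 18 and 12 members passed with a pseudocount of 5, 35 were lower with 0.1, and 17 were higher at 5 RPKM or more. For levels of crr1, 10 and 29 passed with a pseudocount of 0.1, 3 and 6 with 5, 10 were lower at 5 RPKM or more, 8 were higher with TS4 included and 9 were higher with median-of-ratios scaling. TS1 alone gave 2 and 6 for crr1, and TS2 alone 19 and 30. For levels of crr1dCys, 3 and 4 passed with a pseudocount of 5, 9 were lower at 5 RPKM or more, TS1 alone gave 1 and 7, and TS2 alone 22 and 27. Leaving out 1 strain in turn (leave-one-out) gave 1 to 22 and 3 to 40 for levels of crr1, and 1 to 20 and 0 to 30 for levels of crr1dCys. For crr1dCys, 7 and 15 as reported, the counts were 1 and 0 without CC-124. The low end came without CC-124 and the high end without crr1:CRR1.

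For the response of CC-124, 11 and 6 as reported, 7 and 8 members passed with a pseudocount of 0.1, 3 and 4 without crr1dCys, and 2 were lower with a pseudocount of 5. Without the filter on low values 5 and 1 passed, and at 5 RPKM or more 6 were higher. TS4 included gave 9 and 0, 7 of the 9 among the 11, and TS2 alone gave 36 and 14. Leave-one-out gave 0 to 32 and 0 to 8. With 5 RPKM or more, 105 members exceeded light in TS4. The 12 members with larger responses in both full-length strains were 7 with a pseudocount of 5, 6 at 5 RPKM or more, 5 with TS4 included and 4 with TS4 in place of TS1, the last chosen after seeing the data. The cause of these changes was not tested. Values that cannot be had are those of CC-124 without CC-124 or from TS1 alone, and the crr1 and crr1dCys responses from TS1 or TS2 alone, without CC-124 or without crr1:CRR1, where no residual degrees of freedom remain. For low members, few reads limit precision.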
